A study of Mus musculus with 8 samples.

Results

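The tubular loss of Bmal1 was followed across 9 long non-coding RNAs (lncRNAs) of the mouse kidney: Gm43581, Gm26652, Gm33263, Gm47564, Gm13211, 9030625G05Rik, Gm13936, Gm32461 and Gm33906. They are 9 of the 9579 genes of the count matrices to which GENCODE vM39 gives the biotype lncRNA. The members were matched by symbol, and all 9 were found. They were picked because their levels in these same libraries differed between mice with and without the clock gene Bmal1 in the renal tubules. The genotype differences, and the time differences measured in the same libraries, are therefore given as a description with no p-value. The cell types and the segments of the proximal tubule that hold each lncRNA are described, and tests are given for the protein-coding genes beside each.

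Bmal1 (gene symbol Arntl) encodes a transcription factor that pairs with CLOCK, binds E-box sequences and drives the daily rhythm of its targets, among them the genes of its own repressors. Nearly every renal cell carries such a clock, and along the tubule it is known to time the transport of salt, glucose and organic ions. A lncRNA is a long transcript with no evident protein product. Many are held in the nucleus, and some act on the genes next to them. The nephron starts at the glomerulus with its podocytes and runs on as the proximal convoluted tubule (PCT), the proximal straight tubule (PST) and the thick ascending limb (TAL), and each of these segments makes its own set of RNAs.

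Kidneys of 8 male mice on the C57BL/6J background were measured by single-nucleus RNA-seq (10x Genomics 3′ chemistry on sorted nuclei of frozen tissue), 2 mice for each genotype and time point. Control mice (Ctrl) were Bmal1 lox/lox. Knockout mice (cKOt) carried the same floxed alleles together with the Pax8-rtTA and LC-1 transgenes, which place a doxycycline-inducible Cre recombinase under the control of the Pax8 promoter, active in renal tubule cells. Both genotypes were 8 weeks old when they received doxycycline at 2 mg/ml for 2 weeks, so the drug is shared and the transgenes are not. Tissue was taken at ZT4, in the light phase, or at ZT16, in the dark phase, with Zeitgeber time counted in hours from lights on. Cells other than tubule cells keep Bmal1 in this model. Each library is 1 mouse, and p-values measure the spread between mice within the 4 groups.

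After filtering, 81391 nuclei remained, 8758 to 10975 a library, with 36548873 to 54500820 unique molecular identifiers (UMIs, counts of distinct RNA molecules) a library. Levels are given as CPM, UMIs of the gene per 1000000 UMIs of all genes in the same library or in the same class of nuclei. The libraries shared 18 to 42 cell barcodes pairwise, at most 0.422% of the smaller library. The nuclei were grouped by their mRNAs alone, without any lncRNA, into 39 clusters, of which 34 could be named from markers and form 21 classes with 78132 nuclei. Class names stand for nuclei that resemble a type (PCT-like, TAL-like) and are used without that ending from here on. The paper states that Bmal1 inactivation was checked by PCR and electrophoresis on another section of the kidneys. Bmal1 (Arntl in the files) is not used as a check of the genotype here. The sources used do not state whether the reads counted for it lie in the deleted part of the gene. Its level was 32.3 and 27.8 CPM in Ctrl and 238 and 165 CPM in cKOt at ZT4, and 133 and 133 CPM in Ctrl and 242 and 213 CPM in cKOt at ZT16. Among 16 tested genes of the core clock, 5 were higher and 2 lower in cKOt at ZT4, where 0.297% and 0.149% of all mRNAs tested were, and 1 was higher and 1 lower at ZT16, where 0.0993% and 0.0745% were (edgeR, adjusted p below 0.05).

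The libraries differed in how the proximal nuclei spread over clusters, and these differences moved with the genotype. PCT nuclei fell into 5 clusters. Clusters 2 and 7 carried PCT markers without those of the PST, and clusters 4, 6 and 10 carried both and are called PCT with PST markers. Cluster 10 held 733 to 982 nuclei in each Ctrl library and 1 to 9 in each cKOt library, whereas cluster 4 held 25 to 289 in Ctrl and 879 to 1160 in cKOt. Cluster 2 held 1410 to 1613 nuclei in 3 cKOt libraries and 479 in the second cKOt mouse at ZT4, while cluster 7 held 45 to 102 in those 3 libraries and 733 in that mouse, so that this library stood apart from the other cKOt libraries. Adipocyte-like nuclei numbered 25 and 41 in the cKOt libraries at ZT4 and 0 to 5 in every other library, and the summed level of 5 adipocyte markers was 9.89 and 22.8 CPM there and 0.616 to 1.72 CPM elsewhere. Over all nuclei, the summed level of 7 PCT markers at ZT16 was 3679 and 2676 CPM in Ctrl and 4303 and 3807 CPM in cKOt, and that of 7 TAL markers was 5194 and 4989 CPM in Ctrl and 4263 and 4111 CPM in cKOt. The genotypes thus did not overlap at ZT16 in either list, whereas at ZT4 they overlapped in both, and so did the PST markers at both times. The part of these levels in the differences over all nuclei was not tested. The second cKOt mouse at ZT4 is also the library without which the ZT4 fold changes of Gm43581, Gm13936 and Gm32461 over all nuclei were lowest, and these are given with and without it.

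The 9 genes lie on 8 chromosomes, and GENCODE vM39 gives each the biotype lncRNA. Gm43581 (ENSMUSG00000105199) is a single exon on the plus strand of chromosome 3, inside an intron of Slc16a1 on the same strand, and 0 of its 2864 exonic bases are exonic in Slc16a1. The sources used here do not state how reads from that intron were shared between the pair, so the Gm43581 counts may contain unspliced Slc16a1 RNA. Gm26652 (ENSMUSG00000097497) spans 262 kb of chromosome X on the minus strand and contains the genes of miR-221 and miR-222 on its own strand. Gm33263 (ENSMUSG00000111941, chromosome 10) starts 0.061 kb from, and points away from, the longest annotated form of Rhobtb1. Only 2 of 23 annotated Rhobtb1 transcripts start within 1 kb of it, and the others start 57.4 to 128 kb away. Gm13936 (ENSMUSG00000085444, chromosome 2) ends 6.57 kb from Bbox1, and Gm33906 (ENSMUSG00000115016, chromosome 14, named AA536875 in vM39) ends 11.6 kb from Nalcn, both on opposite strands.

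The remaining members lie farther from coding genes or next to genes of other roles. Gm47564 (ENSMUSG00000111803, chromosome 9) lies 56.4 kb from Sesn3, and 9030625G05Rik (ENSMUSG00000118384) lies 11.5 kb from Lipg. Gm32461 (ENSMUSG00000116993, chromosome 16, 61 annotated transcripts) overlaps the antisense lncRNA Gm32624 and lies 868 kb from Adamts5. Gm13211 (ENSMUSG00000085070, chromosome 2) is 207 kb from Celf2. For Gm32461 the use of strand in counting was not stated, so reads of Gm32624 may be counted with it. Gm32624 has counts of its own, with a mean of 2.35 CPM in PCT nuclei beside 337 CPM for Gm32461.

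Promoter windows, 250 bases before to 50 bases after an annotated start, were found in RefSeq (build GRCm38.p6) for 3 of the 9 members, and they are shown because the clock acts on DNA through short motifs. Each window was searched on both strands for the E-box CACGTG bound by BMAL1 and CLOCK, the D-box TTANGTAA, and the ROR and REV-ERB half-site AGGTCA. Capitals mark a match, which is a description of the letters and not a bound site. The windows are chr10:69151274-69151573 on the minus strand for Gm33263, chr16:86806464-86806763 on the minus strand for Gm32461 and chr14:123043032-123043331 on the plus strand for Gm33906.
Gm33263: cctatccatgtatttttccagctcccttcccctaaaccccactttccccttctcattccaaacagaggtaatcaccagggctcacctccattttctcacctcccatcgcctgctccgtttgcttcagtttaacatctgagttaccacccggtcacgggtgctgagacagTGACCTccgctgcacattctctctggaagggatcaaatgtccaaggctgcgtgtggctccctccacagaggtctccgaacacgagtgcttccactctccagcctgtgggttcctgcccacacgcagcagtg
Gm32461: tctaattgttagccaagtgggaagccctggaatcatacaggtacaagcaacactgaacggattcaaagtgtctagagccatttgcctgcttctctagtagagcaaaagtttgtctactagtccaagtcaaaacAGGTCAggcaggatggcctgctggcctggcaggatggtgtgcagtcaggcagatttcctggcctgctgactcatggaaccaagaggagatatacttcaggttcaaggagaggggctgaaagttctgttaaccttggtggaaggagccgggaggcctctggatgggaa
Gm33906: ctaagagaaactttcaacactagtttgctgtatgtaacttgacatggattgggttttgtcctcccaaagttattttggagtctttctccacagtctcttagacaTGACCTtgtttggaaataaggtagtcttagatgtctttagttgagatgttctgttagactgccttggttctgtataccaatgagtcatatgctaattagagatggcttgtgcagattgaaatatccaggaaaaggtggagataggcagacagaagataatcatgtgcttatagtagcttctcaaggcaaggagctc
Each of the 3 windows held 1 copy of AGGTCA or its reverse complement TGACCT, whose first base lay at −81 in Gm33263, −117 in Gm32461 and −146 in Gm33906, counted from the start. Of all 32851 RefSeq promoter windows, 16.3% held this motif. The letters CACGTG, present in 7.15% of all windows, and TTANGTAA, present in 2.32%, did not occur in the 3, which says nothing of these factors beyond the letters of these windows.

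Among protein-coding genes beside members, 3 were higher in cKOt at ZT4 in the tests below, and windows of 2 of them, those whose span or start lies closest to a member, are shown next. The window of Lrig2, the other one, is not printed and held none of the 3 motifs. The window of Slc16a1 is chr3:104638414-104638713 on the plus strand, and that of Rhobtb1 is chr10:69212407-69212706 on the plus strand, 1 of 3 Rhobtb1 windows in RefSeq.
Slc16a1: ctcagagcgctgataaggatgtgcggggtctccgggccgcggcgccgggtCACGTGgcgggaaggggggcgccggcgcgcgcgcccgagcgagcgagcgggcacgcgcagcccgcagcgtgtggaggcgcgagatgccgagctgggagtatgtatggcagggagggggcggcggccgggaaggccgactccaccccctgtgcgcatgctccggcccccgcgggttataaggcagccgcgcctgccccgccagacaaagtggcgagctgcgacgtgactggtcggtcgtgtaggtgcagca
Rhobtb1: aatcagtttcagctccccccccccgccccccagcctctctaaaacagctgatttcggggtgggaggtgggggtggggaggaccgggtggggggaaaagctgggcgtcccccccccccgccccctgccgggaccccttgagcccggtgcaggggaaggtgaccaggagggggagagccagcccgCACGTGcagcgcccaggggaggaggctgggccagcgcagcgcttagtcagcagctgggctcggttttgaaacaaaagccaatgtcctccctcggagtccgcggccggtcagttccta
Each of these windows held 1 CACGTG, at −200 in Slc16a1 and at −67 in Rhobtb1. The other 2 Rhobtb1 windows held 0 copies, which was known when the window was picked. The RefSeq start of Gm33263 lies 57.2 to 61.9 kb from the 3 RefSeq starts of Rhobtb1, so the Rhobtb1 window printed here is not shared with the lncRNA.

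Mature miRNAs of the 3p arm encoded within the span of Gm26652 are shown with their seed, bases 2 to 8 from the 5′ end, in capitals (RefSeq, GRCm38.p6, minus strand of chromosome X).
mmu-miR-221-3p: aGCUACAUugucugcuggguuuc
mmu-miR-222-3p: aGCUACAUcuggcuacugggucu
Both carry the seed GCUACAU, whereas mmu-miR-221-5p, also encoded there and not printed, carries the seed CCUGGCA. Mature miRNAs are not captured by the assay and have no counts, so nothing below measures them.

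The first question was how each lncRNA stood in cKOt against Ctrl at each time of day. Summed over all nuclei of a library, 7 of the 9 were higher and 2 (Gm47564 and Gm13211) were lower in cKOt at both ZT4 and ZT16. With edgeR's quasi-likelihood test over all lncRNAs, 6 of the 9 passed an adjusted p of 0.05 at ZT4, where 0.768% of the 4686 lncRNAs tested did, and 5 passed at ZT16, where 0.389% of 4632 did. At ZT4 4 of them were higher and 2 lower, beside 0.64% and 0.128% of all lncRNAs tested, and at ZT16 4 were higher and 1 lower, beside 0.259% and 0.13%. These counts describe how the members were chosen and are not evidence beyond it. The median log2 fold change over the 9 was 1.5 at ZT4 and 1.16 at ZT16, beside 0.02 and −0.00 over all lncRNAs tested. The Ctrl and cKOt libraries did not overlap for 8 of the 9 at ZT4 and for 9 of the 9 at ZT16, and with 2 libraries a group 42% and 32.8% of all lncRNAs tested did not overlap either. Sums over all nuclei move both with the number of nuclei of a type and with the RNA in each, and these cannot be told apart from such sums alone.

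**Figure D1:**
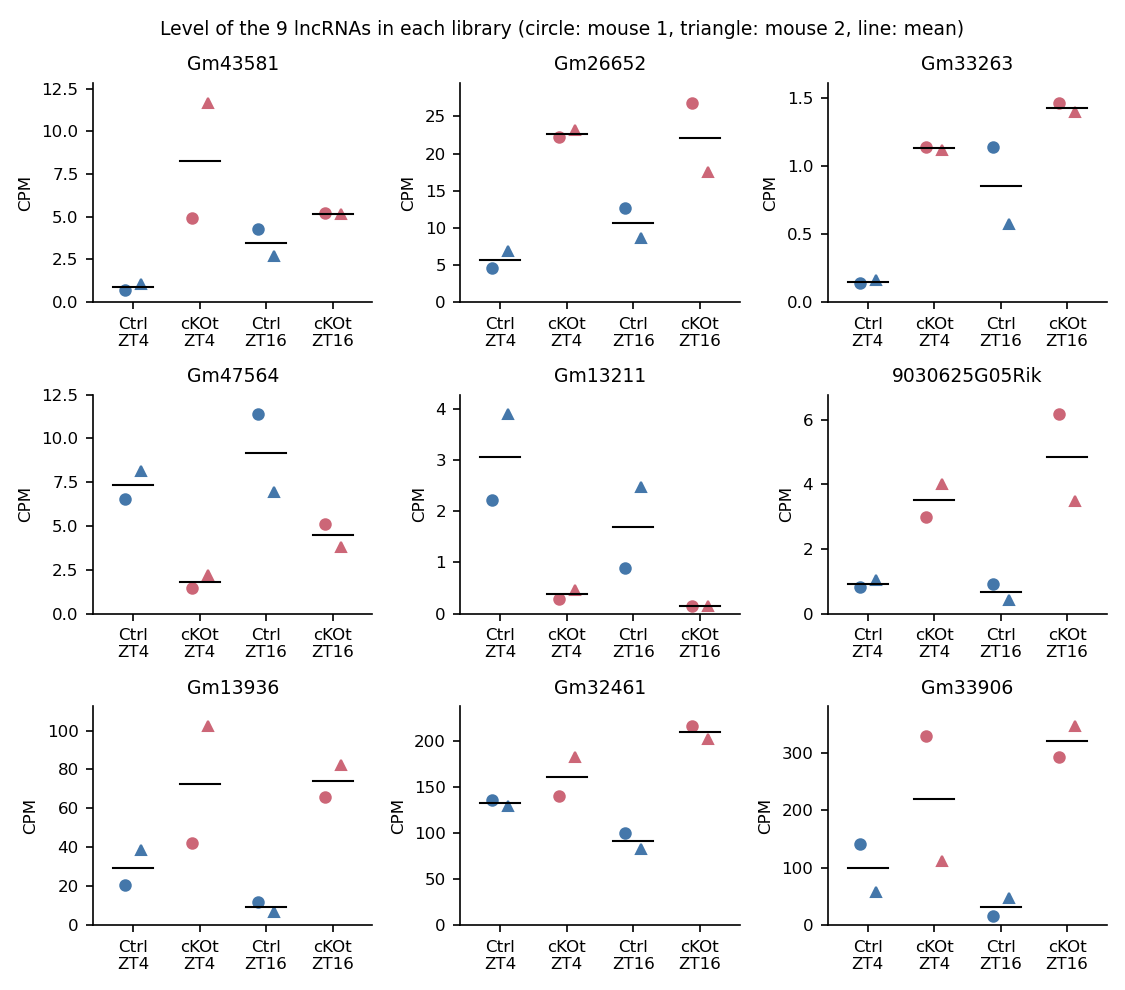
Level of each lncRNA (CPM, linear axes from 0) in each of the 8 libraries, grouped by genotype and time point. A circle is the first and a triangle the second mouse of a group, and the line is their mean. At ZT4 the cKOt libraries of Gm43581 (4.92 and 11.7 CPM) lie above those of Ctrl (0.711 and 1.03 CPM), and for Gm33906 the genotypes overlap at ZT4.

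Gm43581, Gm26652 and Gm33263 were higher in cKOt by more at ZT4 than at ZT16. Gm43581 measured 0.711 and 1.03 CPM in Ctrl and 4.92 and 11.7 CPM in cKOt at ZT4. At ZT16 it measured 4.28 and 2.67 CPM in Ctrl and 5.21 and 5.17 CPM in cKOt. The low values were those of the Ctrl mice at ZT4, and the highest value was that of the second cKOt mouse at ZT4. In cKOt against Ctrl the log2 fold change was 3.44 ± 0.37 (SE) at ZT4 and 0.70 ± 0.33 at ZT16. Without the second cKOt mouse the ZT4 value was 2.75. Adipocyte-like nuclei gave 1.42% and 3.52% of the Gm43581 UMIs in the cKOt libraries at ZT4, and the log2 fold change without them was 3.41.

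Gm26652, which spans the miR-221 and miR-222 genes, was low in Ctrl at ZT4 too. It stood at 4.54 and 6.91 CPM in Ctrl and 22.2 and 23.2 CPM in cKOt at ZT4, and at 12.7 and 8.63 CPM in Ctrl and 26.8 and 17.5 CPM in cKOt at ZT16. Its log2 fold change was 2.21 ± 0.27 at ZT4 and 1.16 ± 0.26 at ZT16, and it lay between 1.95 and 2.54 at ZT4 when any 1 library was left out. Gm33263 is the scarcest of the 9, with 348 UMIs in all. It had 5 and 8 UMIs in the Ctrl libraries at ZT4 (0.137 and 0.162 CPM) against 49 and 57 UMIs in cKOt (1.14 and 1.12 CPM). At ZT16 it had 62 and 25 UMIs in Ctrl (1.14 and 0.571 CPM) and 76 and 66 UMIs in cKOt (1.46 and 1.39 CPM). As for Gm43581, the Ctrl mice at ZT4 were the lowest, and the other 6 libraries lay between 0.571 and 1.46 CPM. Its log2 fold change was 3.11 ± 0.41 at ZT4 and 0.85 ± 0.32 at ZT16.

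Gm47564 and Gm13211 were lower in cKOt, and neither pair of groups overlapped at either time. Gm47564 measured 6.57 and 8.13 CPM in Ctrl and 1.44 and 2.21 CPM in cKOt at ZT4, and 11.4 and 6.96 CPM in Ctrl and 5.13 and 3.8 CPM in cKOt at ZT16. Its log2 fold change was −1.78 ± 0.27 at ZT4 and −0.92 ± 0.26 at ZT16. Gm13211 measured 2.22 and 3.90 CPM in Ctrl and 0.279 and 0.470 CPM in cKOt at ZT4. At ZT16 it measured 0.899 and 2.49 CPM in Ctrl and 0.154 and 0.148 CPM in cKOt, the cKOt values resting on 8 and 7 UMIs. The mean cKOt level was thus 0.122 times the mean Ctrl level at ZT4 and 0.0890 times at ZT16. The log2 fold change was −2.80 ± 0.53 at ZT4 and −3.43 ± 0.61 at ZT16, and the latter was −2.28 without the second Ctrl mouse at ZT16.

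9030625G05Rik was higher in cKOt at both times. It measured 0.821 and 1.03 CPM in Ctrl and 3.0 and 4.02 CPM in cKOt at ZT4, and 0.899 and 0.411 CPM in Ctrl and 6.17 and 3.50 CPM in cKOt at ZT16. Every cKOt library lay above every Ctrl library, whatever the time. On the log2 scale the difference was 2.13 ± 0.34 at ZT4 and 2.98 ± 0.35 at ZT16, with a range of 2.56 to 3.48 at ZT16 over the fits that left out 1 library.

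Gm13936, Gm32461 and Gm33906 were higher in cKOt by more at ZT16 than at ZT4. Gm13936 measured 20.5 and 38.4 CPM in Ctrl and 42.4 and 102 CPM in cKOt at ZT4, and 11.9 and 6.83 CPM in Ctrl and 66.0 and 82.3 CPM in cKOt at ZT16. The cKOt mice differed more from each other at ZT4 than at ZT16. Its log2 fold change was 1.5 ± 0.36 at ZT4, 0.79 without the second and 2.01 without the first cKOt mouse, and 3.12 ± 0.38 at ZT16. Gm32461, one of the more abundant members, differed by the smallest factor of the 9 at ZT4. It measured 136 and 129 CPM in Ctrl and 140 and 182 CPM in cKOt at ZT4, and 100.3 and 82.5 CPM in Ctrl and 216 and 202 CPM in cKOt at ZT16. Its log2 fold change was 0.51 ± 0.19 at ZT4, 0.35 without the second cKOt mouse, and 1.29 ± 0.19 at ZT16, the latter between 1.27 and 1.34 when 1 library was left out.

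Gm33906 varied widely between mice of 1 group. It measured 142 and 57.6 CPM in Ctrl and 329 and 111 CPM in cKOt at ZT4, so that the second cKOt mouse lay below the first Ctrl mouse. At ZT16 it measured 15.6 and 46.7 CPM in Ctrl and 293 and 347 CPM in cKOt, with no overlap and with 10.3 times the mean Ctrl level in cKOt. The difference on the log2 scale was 1.41 ± 0.56 at ZT4 and 3.37 ± 0.61 at ZT16. At ZT4 it was 0.29 without the first cKOt mouse and 2.2 at most, and at ZT16 it was 4.65 without the second Ctrl mouse and 2.71 at least.

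**Figure D2:**
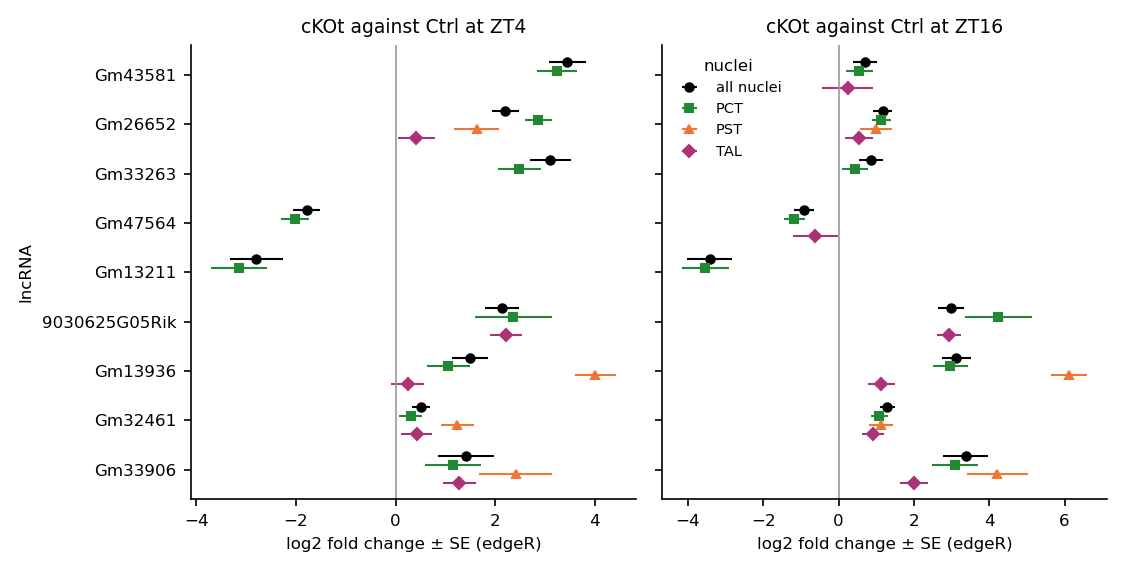
Log2 fold change of cKOt against Ctrl (edgeR, points with SE bars) for each lncRNA, at ZT4 and at ZT16, over all nuclei and within PCT, PST and TAL nuclei where it was tested. Gm13936 in PST nuclei reaches 4.01 at ZT4 and 6.11 at ZT16, and Gm47564 and Gm13211 lie below 0.

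The second question was where in the kidney these RNAs are found. On average over the 8 libraries all 9 stood higher in tubule than in non-tubule nuclei, 8 of them in 8 of 8 libraries. A choice of lncRNAs that differ after a deletion in tubule cells favours RNAs of the tubule, so this is a description with no test. The share of all lncRNAs that stand higher in tubule nuclei was not counted. The mean difference of log2(CPM + 1) was largest for Gm33906, 203 ± 161 CPM in tubule against 24.1 ± 21.8 CPM in non-tubule nuclei (SD, n = 8 libraries), 3.03 on the log2 scale, and for Gm32461, 178 ± 56.0 against 21.8 ± 7.07 CPM, 2.97 on the log2 scale. Gm13936 was the exception in part, at 54.4 ± 41.8 against 16.7 ± 7.27 CPM and higher in tubule nuclei in 7 of 8 libraries. Podocytes held a high level of it, 188 to 399 CPM in the 8 libraries, and with podocytes left out of the non-tubule nuclei the difference was 2.91 on the log2 scale in 8 of 8 libraries. That alternative was chosen after the data were seen.

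**Figure D3:**
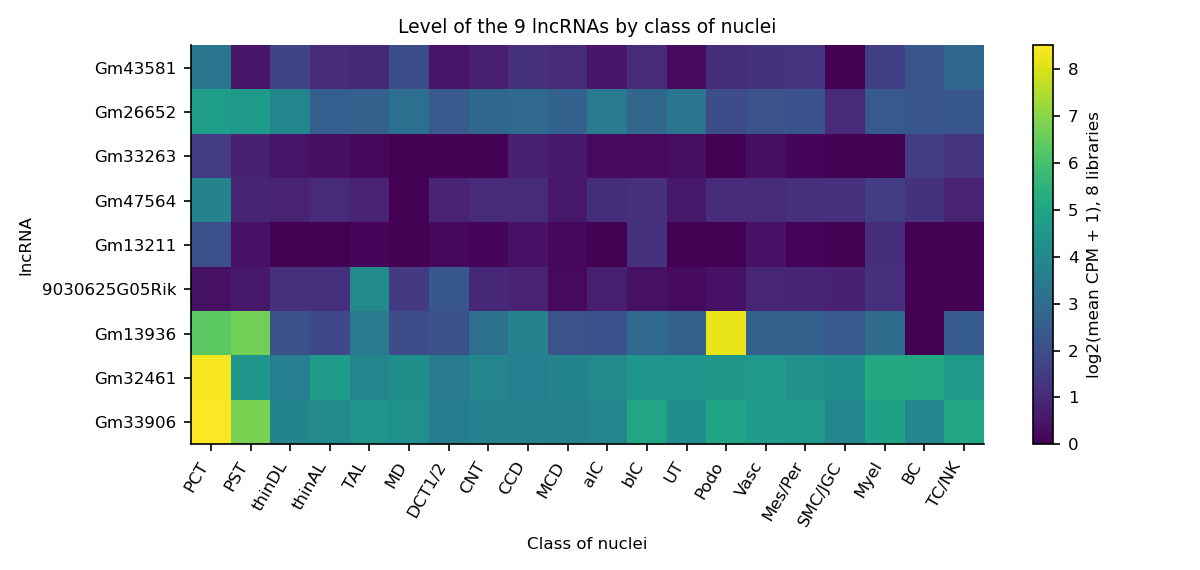
Mean level of each lncRNA over the 8 libraries by class of nuclei, as log2(mean CPM + 1) on a colour scale. Among the 20 classes shown, which leave out adipocyte-like nuclei, PCT has the highest mean for 6 of the 9, TAL for 9030625G05Rik (15.9 CPM), podocytes for Gm13936 (292 CPM) and the BC class for Gm33263 (1.90 CPM from 1 UMI, beside 1.78 CPM in PCT).

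With clusters 4, 6 and 10 counted as PCT, PCT nuclei held most UMIs of 8 of the 9 lncRNAs. Their share of the UMIs in named nuclei was 93.2% for Gm32461, 90.4% for Gm13211, 90.0% for Gm47564, 89.2% for Gm33906, 85.7% for Gm43581, 81.8% for Gm33263, 71.3% for Gm13936 and 70.5% for Gm26652. PCT nuclei are also the largest class, with 22525 nuclei. They held 14677357 to 22346151 UMIs of all genes a library, where whole libraries held 36548873 to 54500820. Clusters 4 and 10 scored higher for PST than for PCT markers, and with proximal clusters named by their better score PCT nuclei held most UMIs of 3 of the 9, with 88.2% for Gm47564, 75.3% for Gm32461 and 70.1% for Gm43581. By that naming, chosen after the data were seen, the PCT share was 39.9% for Gm26652, 37.5% for Gm33263, 15.5% for Gm33906, 8.45% for Gm13936 and 4.46% for Gm13211. Adipocyte-like nuclei held 24 Gm43581 UMIs, 3 and 21 in the cKOt libraries at ZT4 (19.6 and 80.2 CPM) and 0 in the other 4 libraries that have such nuclei. With the first naming, PST nuclei came next for Gm13936, with 18.1%, and for Gm26652, with 13.6%. 9030625G05Rik differed from the others in that TAL nuclei held 73.6% of its UMIs and the distal convoluted tubule a further 9.84%, while PCT nuclei held 5.13%.

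Within the proximal tubule, 6 of the 9 stood higher in PCT than in PST nuclei in 8 of 8 libraries, with the first naming. A choice of lncRNAs that differ over all nuclei favours RNAs of the largest class, and PST nuclei held only 9 to 27 UMIs of Gm13211, Gm43581, Gm33263 and Gm47564, so this is a description with no test. The share of all lncRNAs that stand higher in PCT nuclei was not counted. Bmal1 is deleted in both segments. For Gm32461 (337 ± 94.3 against 20.9 ± 9.09 CPM, SD, n = 8), Gm47564 (12.8 ± 7.90 against 0.856 ± 0.542 CPM) and Gm43581 (9.10 ± 6.67 against 0.420 ± 0.482 CPM) the PCT level was also the higher one in 8 of 8 libraries with proximal clusters named by their better score. For Gm33263, Gm13211 and Gm33906 it was not. Counting the clusters with both marker lists by their better score instead turned Gm13211 from 1.27 to −1.59 and Gm33906 from 2.16 to −1.98 on the log2 scale. The nuclei that hold these RNAs carry markers of both segments. Gm26652 (25.7 ± 15.6 against 23.6 ± 12.9 CPM), Gm13936 (80.9 ± 58.9 against 102 ± 109 CPM) and 9030625G05Rik (0.306 ± 0.270 against 0.477 ± 0.404 CPM) had no common direction over the libraries. For Gm13936 the mean level was lower in PCT nuclei while the mean difference on the log2 scale was 0.72. The 4 Ctrl libraries were higher in PCT nuclei, with means of 61.7 against 13.6 CPM at ZT4 and 17.4 against 2.85 CPM at ZT16, and the 4 cKOt libraries were higher in PST nuclei, with means of 117 against 200.3 CPM and 127 against 192 CPM, so the mean joins opposite directions. With proximal clusters named by their better score the Gm13936 difference was −2.77, and with doublets left out that of 9030625G05Rik turned from −0.16 to 0.18.

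The division inside the PCT class was sharp for several members. PCT nuclei without PST markers held 82.9% of all Gm47564 UMIs in named nuclei. There it measured 40.0 and 58.0 CPM in Ctrl and 7.11 and 11 CPM in cKOt at ZT4, and 91.9 and 60.5 CPM in Ctrl and 24.6 and 19.2 CPM in cKOt at ZT16. All 4 Ctrl libraries stood above all 4 cKOt libraries. PCT nuclei with PST markers, in contrast, held 89.2% of the Gm13211 UMIs, 87.8% of those of Gm33906 and 68.7% of those of Gm13936. Gm13211 in these nuclei measured 6.54 and 14.5 CPM in Ctrl and 0.915 and 1.38 CPM in cKOt at ZT4, and 3.09 and 8.63 CPM in Ctrl and 0.512 and 0.571 CPM in cKOt at ZT16. The groups again did not overlap.

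Of the 3 clusters with both marker lists, clusters 10 and 4 hold mostly 1 genotype, whereas cluster 6 held 394 to 866 nuclei in the Ctrl and 356 to 653 in the cKOt libraries. Pooled over libraries, Gm13211 measured 12.1 CPM in cluster 10, made almost only of Ctrl nuclei, 1.60 CPM in cluster 4, made mostly of cKOt nuclei, and 0.10 to 0.49 CPM in the other 3 PCT clusters. Gm33906 measured 1044 CPM in cluster 4, 281 CPM in cluster 6 and 224 CPM in cluster 10. Gm13936 measured 240 CPM in cluster 4, 33.2 CPM in cluster 6 and 78.0 CPM in cluster 10. Gm47564 measured 55.8 CPM in cluster 7 and 19.3 CPM in cluster 2. No lncRNA entered the clustering, yet the mRNAs that did may differ by genotype, so a shift of nuclei between clusters and a changed level within a nucleus cannot be told apart here.

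**Figure D4:**
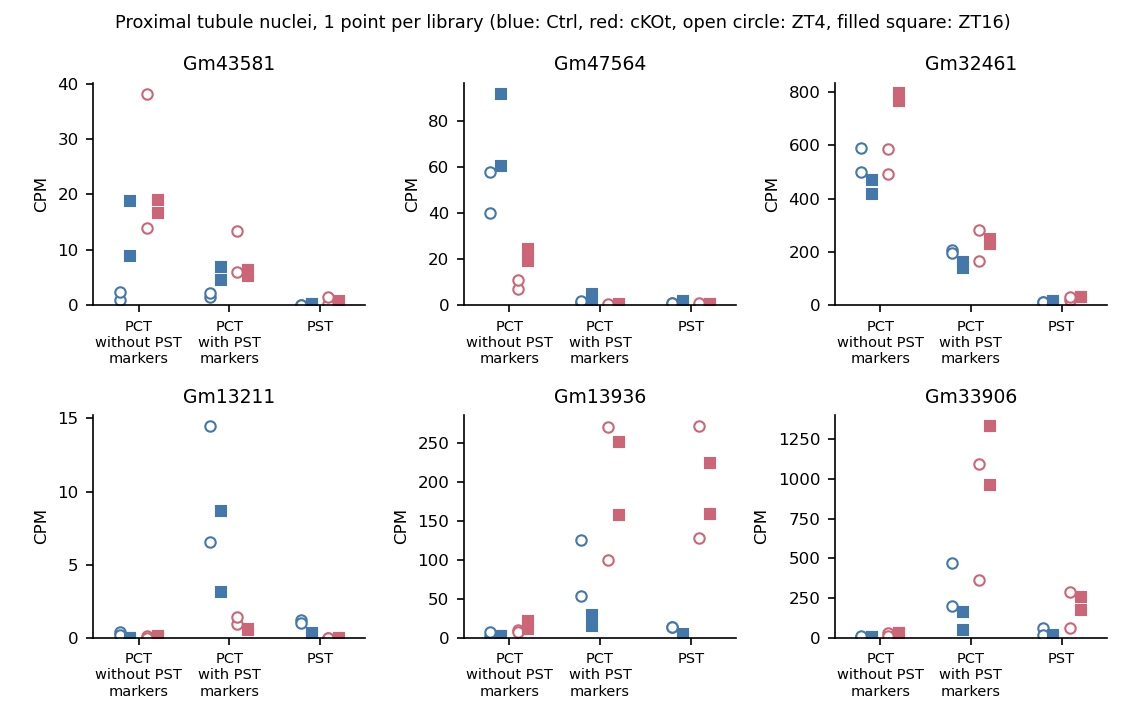
Level (CPM, linear axes from 0) of lncRNAs in PCT nuclei without PST markers, PCT nuclei with PST markers and PST nuclei, 1 point per library, blue for Ctrl and red for cKOt, open circles for ZT4 and filled squares for ZT16. Gm47564 lies in the first of these classes (7.11 to 91.9 CPM) and Gm33906 in the second (47.3 to 1336 CPM).

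Genotype differences within a class were next set beside those over all nuclei. In PCT nuclei 5 of the 9 passed the edgeR limit at ZT4, where 1.24% of the lncRNAs tested did, and 6 at ZT16, where 1.06% did. These counts, and those for PST and TAL nuclei below, come from the genotype difference and libraries used for the choice, and nothing is read from them. Gm43581 measured 1.36 and 2.33 CPM in Ctrl and 9.25 and 22.8 CPM in cKOt PCT nuclei at ZT4, a log2 fold change of 3.24 ± 0.40, and of 2.5 without the second cKOt mouse. Gm26652 measured 5.36 and 6.75 CPM in Ctrl and 38.7 and 40.6 CPM in cKOt, a log2 fold change of 2.87 ± 0.27, larger than the 2.21 over all nuclei. At ZT16 it measured 21.7 and 15.2 CPM in Ctrl and 44.8 and 32.7 CPM in cKOt PCT nuclei, 1.13 ± 0.25. The 2 Ctrl PCT samples at ZT4 were thus the low ones. In TAL nuclei Gm26652 stayed between 2.88 and 7.44 CPM in all 8 libraries, with log2 fold changes of 0.42 ± 0.37 at ZT4, where the genotypes overlapped, and 0.54 ± 0.38 at ZT16. At ZT4 its log2 fold change was 1.06 ± 0.51 in vascular nuclei and 2.35 ± 0.66 in the mesangial and pericyte class. These 2 classes held 103 and 79 Gm26652 UMIs over the 8 libraries, with Ctrl means of 2.64 and 0.997 CPM at ZT4.

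Among the PCT, PST and TAL classes, Gm13936 had its largest genotype difference in PST nuclei. It measured 13.5 and 13.7 CPM in Ctrl and 129 and 272 CPM in cKOt at ZT4, and 4.50 and 1.20 CPM in Ctrl and 159 and 224 CPM in cKOt at ZT16. The log2 fold change in PST nuclei was 4.01 ± 0.42 at ZT4 and 6.11 ± 0.48 at ZT16. With the first naming PST nuclei form 1 cluster, which held 392 to 518 nuclei in every library. In podocytes, which keep Bmal1 in this model, Gm13936 measured 281 and 295 CPM in Ctrl and 281 and 399 CPM in cKOt at ZT4, and 257 and 188 CPM in Ctrl and 340 and 299 CPM in cKOt at ZT16. The genotypes overlapped in podocytes at ZT4 and not at ZT16, and the class has 534 nuclei in all.

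Gm33906 also differed in PST nuclei, from 4.50 and 19.2 CPM in Ctrl to 176 and 257 CPM in cKOt at ZT16, a log2 fold change of 4.21 ± 0.81. Of the 4 members tested in PST nuclei, 1 passed at ZT4, where 0.498% of lncRNAs did, and 2 at ZT16, where 1.00% did. In vascular nuclei, which keep Bmal1, Gm33906 measured 2.40 and 5.76 CPM in Ctrl and 38.7 and 57.6 CPM in cKOt at ZT16, a log2 fold change of 3.59 ± 0.47. The libraries low in vascular nuclei were those low in PCT nuclei, where Gm33906 measured 36.1 and 121 CPM in Ctrl and 599 and 780 CPM in cKOt. Nuclei of the mesangial and pericyte class had 2.21 and 6.44 CPM in Ctrl and 38.2 and 55.9 CPM in cKOt at ZT16, close to the vascular values. Free RNA from broken cells enters droplets of every class at a like level, and its part in these non-tubule values was not tested.

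9030625G05Rik had most of its UMIs in the thick ascending limb. In TAL nuclei it measured 5.78 and 6.20 CPM in Ctrl and 22.3 and 27.7 CPM in cKOt at ZT4, and 5.23 and 2.31 CPM in Ctrl and 37.6 and 19.8 CPM in cKOt at ZT16. All 4 cKOt values lay above all 4 Ctrl values. The log2 fold change was 2.22 ± 0.32 at ZT4 and 2.92 ± 0.32 at ZT16. In TAL nuclei 1 of 5 members tested passed at ZT4, where 0.413% of lncRNAs did, and 2 of 7 at ZT16, where 0.287% did. Nuclei of the distal convoluted tubule showed the same order at a lower level, with 2.32 and 1.01 CPM in Ctrl and 3.78 and 4.40 CPM in cKOt at ZT4, and 0.673 and 0.779 CPM in Ctrl and 10.5 and 8.52 CPM in cKOt at ZT16. PCT nuclei, with 48 UMIs of it in all, had 0 and 0.0681 CPM in Ctrl and 0.671 and 0.60 CPM in cKOt at ZT16, a fitted log2 fold change of 4.24 ± 0.89 that rests on a library at 0, and 2.37 ± 0.77 at ZT4. The ZT16 value was 3.0 without the first and 6.69 without the second Ctrl mouse at ZT16.

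The time of day was compared in the same libraries. In Ctrl mice Gm43581 and Gm33263 were higher at ZT16 than at ZT4, with log2 differences of 2.07 ± 0.37 and 2.57 ± 0.42, and these 2 passed the edgeR limit where 0.574% of the 4707 lncRNAs tested did, 0.212% in this direction. Both were chosen with the same low Ctrl libraries at ZT4, so nothing is read from this count. Gm26652 stood 0.98 ± 0.26 higher, Gm13936 1.58 ± 0.36 lower and Gm33906 1.47 ± 0.56 lower at ZT16 on the log2 scale, and the Ctrl libraries of the 2 times did not overlap for these 5 and Gm32461, 6 of the 9, where 38.6% of all lncRNAs tested did not overlap. In cKOt mice the differences of the first 5 were −0.68 ± 0.32 for Gm43581, 0.32 ± 0.32 for Gm33263, −0.06 ± 0.25 for Gm26652, 0.04 ± 0.35 for Gm13936 and 0.50 ± 0.55 for Gm33906. For Gm47564, the cKOt libraries at ZT16 (5.13 and 3.8 CPM) lay above those at ZT4 (1.44 and 2.21 CPM), a log2 difference of 1.27 ± 0.27, against 0.41 ± 0.26 in Ctrl. All of these differences share libraries with the genotype comparisons. A test of the genotype effect at ZT16 against that at ZT4 uses the same libraries as the choice, so no p-value is given for the members. It called 0 of the 4927 lncRNAs tested (edgeR, adjusted p below 0.05). Which time had the larger genotype difference is thus only a description of the members' values.

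The protein-coding genes beside the members were not used to choose them, and their genotype effects were tested over all mRNAs. Slc16a1 is the exception in part, since Gm43581 lies in its intron on the same strand and the pair may share reads, so its value is not independent of the choice. Of 19 such genes 18 could be tested. At ZT4, 4 of them passed (edgeR, adjusted p below 0.05), where 0.446% of 16158 mRNAs did, and of these 3 were higher and 1 lower in cKOt, beside 0.297% and 0.149% of all mRNAs tested. Rhobtb1, which serves as an adaptor for a cullin ubiquitin ligase, rose from 160 and 187 CPM in Ctrl to 1092 and 1017 CPM in cKOt, a log2 fold change of 2.66 ± 0.15 (edgeR adjusted p = 0.000207). Slc16a1, the monocarboxylate transporter that carries lactate and ketone bodies, rose from 3.88 and 4.99 CPM to 13.7 and 31.3 CPM, 2.39 ± 0.37 (edgeR adjusted p = 0.0395). Without adipocyte-like nuclei, an alternative chosen after the data were seen, the Slc16a1 value was 2.36 (edgeR adjusted p = 0.0399). Lrig2, a transmembrane protein with leucine-rich repeats that lies 131 kb from Gm43581, rose from 78.0 and 78.5 CPM to 135 and 170 CPM, 1.01 ± 0.14 (edgeR adjusted p = 0.0223).

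The neighbour that fell at ZT4 was Adamts5, a protease that cuts proteoglycans of the extracellular matrix. It went from 55.8 and 75.2 CPM in Ctrl to 27.2 and 24.6 CPM in cKOt, −1.28 ± 0.18 (edgeR adjusted p = 0.0279), and its highest level was in the mesangial and pericyte class (564 ± 153 CPM, SD, n = 8), whereas its neighbour Gm32461 was held by PCT nuclei. The Slc16a1, Lrig2 and Adamts5 calls were each lost when certain single libraries were left out, and those of Slc16a1 and Adamts5 also with a replicate block. Without the second cKOt mouse at ZT4, the values were 1.69 for Slc16a1 (edgeR adjusted p = 0.0529), 0.86 for Lrig2 (edgeR adjusted p = 0.0601) and −1.20 for Adamts5 (edgeR adjusted p = 0.112). Without the second Ctrl mouse at ZT4 they were 2.59 (edgeR adjusted p = 0.216), 1.02 (edgeR adjusted p = 0.203) and −1.05 (edgeR adjusted p = 0.187). The Slc16a1 and Lrig2 calls were also lost without the first Ctrl mouse at ZT4 (2.22 and 1.01, edgeR adjusted p = 0.179 and 0.123), that of Adamts5 without the first cKOt mouse at ZT4 (−1.37, edgeR adjusted p = 0.0870), and that of Slc16a1 without the first or the second cKOt mouse at ZT16 (2.39 in both, edgeR adjusted p = 0.0695 and 0.0683). The Rhobtb1 call held in each such fit, at 2.55 to 2.78. In PCT nuclei Rhobtb1, Slc16a1 and Lrig2 rose at ZT4 as well, where 0.411% of mRNAs did.

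At ZT16, 0 of the 18 neighbours passed with edgeR, where 0.174% of 16107 mRNAs did. An unadjusted edgeR p under 0.05 was found for 5 of the 18 and for 991 of the 16107 mRNAs. DESeq2 called 3 neighbours (Nalcn, Bbox1 and Rhobtb1), where it called 1.07% of the mRNAs. Nalcn, the sodium leak channel that sets resting membrane potential in neurons, measured 11.2 and 5.82 CPM in Ctrl and 28.7 and 24.0 CPM in cKOt, 1.70 ± 0.30 (edgeR adjusted p = 0.0949). Bbox1, the enzyme of the last step of carnitine synthesis, measured 2.70 and 0.890 CPM in Ctrl and 9.61 and 12.1 CPM in cKOt, 2.65 ± 0.52 (edgeR adjusted p = 0.130). In PST nuclei alone, where Gm13936 had its largest difference, Bbox1 measured 1.5 and 0 CPM in Ctrl and 27.1 and 36.4 CPM in cKOt at ZT16, 5.21 on the log2 scale (edgeR adjusted p = 0.0164 over the mRNAs tested in PST nuclei, of which 0.166% were higher in cKOt). The 0 stands for a library in which a count of 0 allows up to 3 UMIs, and the fitted value depends on it. The test of mRNAs in PST nuclei was not among those planned. This class was picked for its Gm13936 difference, so the Bbox1 value there is a description.

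**Figure D5:**
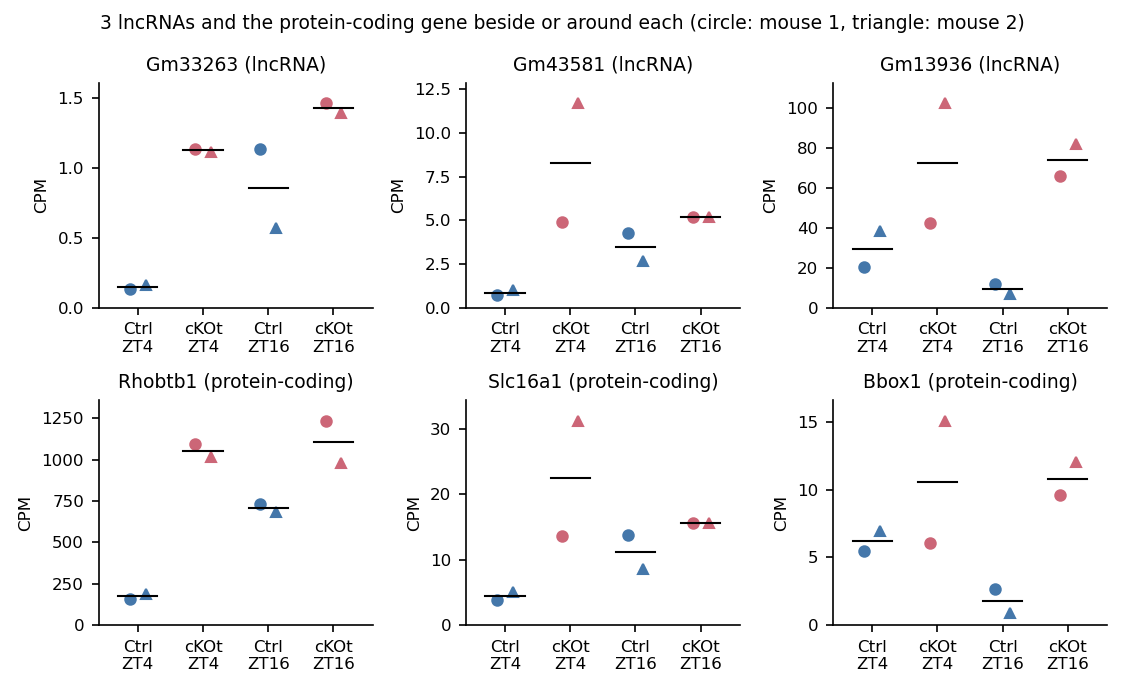
Level (CPM, linear axes from 0) in each library of 3 lncRNAs, upper row, and of the protein-coding gene around or beside each, lower row, by genotype and time point, with a circle for the first mouse, a triangle for the second and a line for their mean. Rhobtb1 stands at 160 and 187 CPM in Ctrl at ZT4 and at 683 to 1236 CPM in every other library.

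Rhobtb1 and Gm33263 showed like patterns over the 4 groups: the Ctrl libraries at ZT4 were low, and the libraries of the other groups were higher. Rhobtb1 measured 730 and 683 CPM in Ctrl and 1236 and 982 CPM in cKOt at ZT16, 0.72 ± 0.15 (edgeR adjusted p = 0.152). In Ctrl it rose from ZT4 to ZT16 by 2.01 ± 0.15 on the log2 scale (edgeR adjusted p = 0.00177), where 0.068% of mRNAs rose. The genotype effect on Rhobtb1 at ZT16 differed from that at ZT4 by −1.94 ± 0.21 (edgeR interaction term, adjusted p = 0.0436), a test that 0.0183% of 16364 mRNAs passed. This call was lost in each of the 8 fits that left out 1 library (edgeR adjusted p = 0.122 to 0.236) and with a replicate block (edgeR adjusted p = 0.0951). In PST nuclei the Ctrl level stayed at 255 and 284 CPM at ZT16 against 1190 and 1094 CPM in cKOt, 2.13 on the log2 scale (edgeR adjusted p = 0.00309). This test in PST nuclei was not among those planned either. Genes of the remaining neighbours, such as Sesn3, Celf2, Gata3, Lipg and N6amt1, did not pass, and the log2 fold changes that did not pass lay between −0.45 and 0.82 at ZT4.

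For each lncRNA the protein-coding genes with the most similar level over 20 classes of nuclei were sought among 14343 genes (Pearson's r of log2(CPM + 1), a description over classes that share libraries). Gm32461 was most like Fam163a (r = 0.958) and Acmsd (r = 0.953), the latter an enzyme of tryptophan breakdown. Gm47564 was most like Qrfpr (r = 0.941), a receptor for a neuropeptide, and Cyp4a12b (r = 0.933), a fatty acid hydroxylase. Gm33906 was most like Olfm4 (r = 0.929) and Slco1a1 (r = 0.929), the latter an organic anion transporter. These genes were picked for their likeness to lncRNAs held mostly by proximal nuclei, so nothing is read from their own placement. Gm13211 was also most like Qrfpr (r = 0.894), followed by the potassium channel gene Kcnh4 (r = 0.885), and Gm43581 like Ugt2a3 (r = 0.883), which conjugates glucuronic acid, and Bnc2 (r = 0.855).

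The other 4 members had other partners. Gm26652 was most like Prss8 (r = 0.916), the protease prostasin, and Rabggta (r = 0.901). Gm33263 was most like 4930539E08Rik (r = 0.856) and Glyat (r = 0.848), the glycine conjugating enzyme of mitochondria. 9030625G05Rik was most like Elavl3 (r = 0.905) and Tmem207 (r = 0.90). Gm13936, the lncRNA with high podocyte levels, was most like Pcsk2 (r = 0.917), a prohormone convertase, and Rhpn1 (r = 0.910). Among the members themselves r ran from −0.20, for Gm33263 and 9030625G05Rik, to 0.93, for Gm47564 and Gm32461. 9030625G05Rik had an r of at most 0.11 with any other member.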

How the data were processed

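The authors aligned the reads with Cell Ranger 7.1.0 and deposited, per library, a matrix of UMI counts per gene and barcode, with no normalization. The submitters' notes name bcl2fastq 2.20 and Seurat 5. The sources used here do not state how intronic and antisense reads were handled.

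A barcode was kept with 500 or more genes, 800 or more UMIs and a mitochondrial share of 2% or less (81391 of 82784). Nuclei were clustered in Seurat 5.3.0 on 2000 variable mRNAs, 1000 principal components, 20 neighbours and resolution 2.2, and clusters were named from marker lists. Proximal clusters carrying both marker lists were counted as PCT. Scrublet in scanpy 1.11.5 marked 4348 nuclei (5.34%) as doublets, which were kept. The depth of 36548873 to 54500820 UMIs per library gave 348 to 62462 UMIs per member in all.

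UMI counts were summed over all nuclei and over each class of a library. lncRNAs and mRNAs were fitted separately in edgeR 4.0.16 (R 4.3.3; TMM, quasi-likelihood, 1 model with 4 groups over 8 libraries), keeping genes with at least 5 counts in both libraries of 1 of the groups compared. P-values were adjusted by Benjamini-Hochberg within a contrast, limit 0.05. The SE of a log2 fold change is its size divided by the square root of F. Levels in PCT and PST nuclei were set side by side within libraries on log2(CPM + 1). The exact sign-flip test planned for them is not reported, since the choice of members bears on it. The fits were tested on simulated counts with known changes. Alternatives were DESeq2 1.42.0, another scaling, no filter, other clusterings and leaving out libraries.

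The genes named are the 9 members, genes overlapping them, the nearest protein-coding gene on each side, and for each member the 2 protein-coding genes most like it across classes. The members and all lists were chosen with earlier results of these data known.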

Additional observations from a re-analysis of the deposited data

Results flagged for a closer look

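The genotype effect on Rhobtb1, the protein-coding gene whose longest form starts beside Gm33263, differed between the time points. It was 2.66 on the log2 scale at ZT4 and 0.72 at ZT16, a difference of −1.94 (edgeR interaction term, adjusted p = 0.0436 over all mRNAs). In each of the 8 fits that left out 1 library the difference kept its sign, from −2.09 to −1.80, and its adjusted p was above the limit, from 0.122 to 0.236.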

How the results depend on the processing

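Each lncRNA had 2 mice a group, and the counts of members that passed moved with single libraries. With all libraries 6 of the 9 passed at ZT4 and 5 at ZT16. Leaving out 1 library gave 3 to 6 at ZT4 and 0 to 6 at ZT16, and the fit with no member at ZT16 was that without the second Ctrl mouse at ZT16, in which edgeR called 0 lncRNAs in all and 294 had an unadjusted p under 0.05. DESeq2 called 7 and 6 members, where it called 1.05% of all lncRNAs tested at ZT4 and 0.561% at ZT16. A scaling over lncRNAs and mRNAs together called 4 and 1, and it moved the median log2 fold change of all lncRNAs at ZT4 to −0.13. In all nuclei the sign of every member's fold change was kept under each alternative run. In PCT nuclei 1 turned, Gm32461 at ZT4, which was −0.0093 when proximal clusters were named by their better score, a choice made after the data were seen.

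The numbers of lncRNAs called by edgeR (36 at ZT4, 18 at ZT16, 27 between times in Ctrl and 23 in cKOt) were 17, 1, 14 and 1 with the joint scaling and 84, 67, 137 and 98 with no filter beyond 1 count. DESeq2 called 52 between times in Ctrl and 37 in cKOt, and without adipocyte-like nuclei, an alternative chosen after the data were seen, the number in cKOt was 15. For mRNAs, 72 and 28 at ZT4 and ZT16 became 349 and 173 with DESeq2 and 128 and 64 with no filter. In PCT nuclei the 30 lncRNAs at ZT16 became 10 when scaled to the total of the class and 12 with proximal clusters named by their better score. Leaving out 1 library gave 9 to 40 lncRNAs at ZT4, 0 to 31 at ZT16, 0 to 61 between times in Ctrl, 2 to 29 in cKOt, 23 to 70 mRNAs at ZT4, 8 to 30 at ZT16, and 16 to 44 and 0 to 39 lncRNAs in PCT nuclei at ZT4 and ZT16. Where edgeR called 0, 401 to 482 lncRNAs between times in Ctrl and 140 in PCT nuclei at ZT16 had an unadjusted p under 0.05.

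Location in the nephron depended on the clusters. With clusters from 50 principal components the tubule difference of Gm13936 was 0.97, and the PCT against PST difference was −0.060 for Gm26652, 0.35 for Gm33263, 0.29 for Gm13211, −0.74 for Gm13936 and −0.28 for Gm33906. With proximal clusters named by their better score it was −0.16 for Gm33263, −1.59 for Gm13211, −2.77 for Gm13936 and −1.98 for Gm33906. With doublets left out it was 0.18 for 9030625G05Rik. Leaving out 1 library moved Gm26652 between −0.051 and 0.20. The cause of these changes was not tested. Among the neighbours, Adamts5 at ZT16 lay between −0.27 and 0.048 when 1 library was left out.

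The labels do not say that a replicate number marks a shared litter or day. The deviations of same-numbered libraries from their group means correlated at 0.426 between the genotypes at ZT4 and 0.433 at ZT16. Between the other groups the correlation ran from −0.261 to 0.204. Since the labels state no pairing, the numbers were not taken to pair the mice. Pairing of the genotypes within a time point was not tested. A replicate block, with an effect shared by both times, called 39 lncRNAs at ZT4 and 15 at ZT16 and 6 and 4 members. Under the block the adjusted p was 0.0756 for Slc16a1 and 0.0566 for Adamts5 at ZT4 and 0.0951 for the Rhobtb1 difference.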
